A study of Mus musculus with 13 samples.

Results

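Tissue macrophages keep their identity through a small set of transcription factors, and 9 factors that mark microglia were followed here: Sall1, Maf, Mef2a, Mef2c, Spi1, Irf8, Runx1, Bhlhe41 and Cebpa. They were chosen by name, for their known roles, out of the 17280 genes of the authors' filtered table, and all 9 were present in the count table of every plate. Each was measured in single microglia of C57BL/6J mice on normal chow (NC) or on a high-fat diet (HFD, 60% fat) for 1 day, 3 days, 1 week, 4 weeks, 9 weeks or 16 weeks. The study's methods name male mice and sorting of CD45lo CD11b+ cells from the hypothalamus, while the labels give brain as the tissue, name several dissected brain regions, and give no age. The labels state 3 days of HFD for every plate, and the lengths used here come from the deposited table of wells. The wells with at least 1500 transcripts held 1617 cells of 2496 wells on 13 plates.

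The factors act in layers. Spi1, which encodes PU.1, opens the enhancers of all macrophages, and Cebpa, Runx1 and Irf8 act beside it from the myeloid progenitor to the mature cell. Mef2a, Mef2c and Maf bind many enhancers that microglia use in the adult brain, Bhlhe41 is an E-box repressor of mature brain macrophages, and Sall1 is a zinc finger regulator that brain macrophages of the border spaces and circulating monocytes largely lack. In microglia, loss of Sall1 or of Mef2c is known to shift the cells toward a reactive state.

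After the filter on depth, 722 cells came from NC and 161, 121, 172, 128, 82 and 231 cells from 1 day, 3 days, 1 week, 4 weeks, 9 weeks and 16 weeks of HFD. The table of wells gives a replicate identifier, which may or may not be a mouse, and where it is not, no p-value here covers the spread between mice. In either case p-values and intervals of the fit cover the spread between sums of cells, since a replicate on several plates enters once per plate. Cells were summed per replicate and plate, giving 28 sums of 19 replicates for NC and 6 sums of 6, 6 of 4, 7 of 5, 5 of 3, 6 of 2 and 10 of 5 replicates for the diet lengths in the same order. A sum held 7 to 76 cells, and between 22774 and 219199 transcripts. Plate 5 held no NC sum, and plate 4 held 1 NC sum of 7 cells. Of the 8 microglial marker genes checked (among them Cx3cr1, P2ry12 and Tmem119), all were found, and 99.8% of the cells carried at least 3 of their molecules. No pair of the 1617 wells held identical counts.

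The members lie on 6 chromosomes in the mouse genome build mm10 (GENCODE M21), and all are protein coding. Sall1 spans chr8:89027235-89044162, Maf chr8:115682942-115707794 and Irf8 chr8:120736358-120756694. Mef2a spans chr7:67231163-67372858, Cebpa chr7:35119293-35121928, Mef2c chr13:83504034-83667080, Spi1 chr2:91082390-91115756, Runx1 chr16:92601466-92826149 and Bhlhe41 chr6:145858243-145865558. CEL-Seq2 counts the 3′ end of each transcript, so a neighbour that overlaps there could share reads. The 3′ end of Mef2a overlaps Lysmd4 on the other strand, and Lysmd4 held 51 molecules over all cells against 4622 for Mef2a. The 3′ end of Irf8 overlaps the readthrough model Gm20388 on the same strand, so the split of reads between them is uncertain.

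The promoters of Mef2a and Bhlhe41 are shown because these genes gave the largest differences with diet described further on, and because each window holds a match to the motif that its own protein is known to bind. The windows run from 250 bases before to 50 bases after the start of the gene (RefSeq, GRCm38.p6, 5′ to 3′ on the gene's strand), at chr7:67372809-67373108 on the minus strand for Mef2a and chr6:145865371-145865670 on the minus strand for Bhlhe41. Capitals mark the MEF2 motif CTANNNNTAG in Mef2a and the E-box CACGTG in Bhlhe41.
Mef2a: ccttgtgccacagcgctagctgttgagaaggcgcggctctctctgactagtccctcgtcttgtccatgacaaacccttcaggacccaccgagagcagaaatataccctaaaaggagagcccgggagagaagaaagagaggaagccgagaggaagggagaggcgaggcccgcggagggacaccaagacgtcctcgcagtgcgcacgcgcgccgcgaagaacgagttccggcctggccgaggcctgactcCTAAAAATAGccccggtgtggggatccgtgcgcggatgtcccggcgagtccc
Bhlhe41: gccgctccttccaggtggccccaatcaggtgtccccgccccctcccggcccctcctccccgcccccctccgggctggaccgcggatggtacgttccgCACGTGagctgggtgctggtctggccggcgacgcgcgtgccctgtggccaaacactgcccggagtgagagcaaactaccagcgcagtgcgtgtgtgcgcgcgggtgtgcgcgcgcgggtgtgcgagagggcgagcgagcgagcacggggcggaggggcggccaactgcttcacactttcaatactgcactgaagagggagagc
The MEF2 match began at position -2 of the Mef2a window, counted from the start site, and the E-box at -153 of the Bhlhe41 window. Searched on both strands, the MEF2 motif was found in 3.69% and the E-box in 7.15% of 32851 promoter windows of this length. In 1 of the 2 Runx1 windows the RUNX motif TGTGGT matched at 29 and at 37 bases after the start, a motif that 16.8% of the windows hold, and an E-box matched at -71. The letters searched for PU.1 (GAGGAAGT), C/EBP (TTGCNNAA), IRF (GAAANNGAAA) and MAF (TGCTGAC) were not found in the windows of the members with an entry. Maf and Spi1 had no entry, Sall1 and Mef2c had 3 windows each, Runx1 and Irf8 had 2, and the other members had 1.

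In NC microglia Maf had the highest level of the factors and Runx1 the lowest. Levels are CPM (the count of a gene relative to the TMM-scaled total of its sum), averaged over the plates of a replicate, and they count 3′ ends, so they are not divided by length. Maf stood at 1353 ± 325 (SD, n = 19), with 626.3 in the lowest replicate, 1374 in the median and 1795 in the highest. Irf8, the interferon regulatory factor of the myeloid line, followed at 964 ± 225, Mef2c at 901 ± 222 and Mef2a at 832 ± 259. Sall1 stood at 497 ± 93.7 and Spi1 at 345 ± 102. Bhlhe41 at 234 ± 90.1, Cebpa at 226 ± 78.2 and Runx1 at 186 ± 75.3 were the lowest, and 1 NC replicate held no Runx1 molecule.

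Some neighbours in this order were apart in most replicates and others were not. Maf exceeded Irf8 in 16 of 19 replicates, Mef2a exceeded Sall1 in 17, Sall1 exceeded Spi1 in 15 and Spi1 exceeded Bhlhe41 in 16. Irf8 exceeded Mef2c in only 11 of 19, Mef2c exceeded Mef2a in 11, Bhlhe41 exceeded Cebpa in 11 and Cebpa exceeded Runx1 in 12, differences smaller than their SDs. NC levels also differed between plates. The mean level of Mef2a ranged from 484 on plate 4 to 1148 on plate 3, and that of Bhlhe41 from 146 on plate 3 to 453 on plate 4. Over the 12 plates with NC, the SD of the plate means was 228 for Mef2a against a pooled SD within plates of 193, 82.8 against 79.6 for Bhlhe41, 232 against 148 for Mef2c and 73.7 against 119 for Sall1. Diet lengths were compared with plate as a block.

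**Figure D1:**
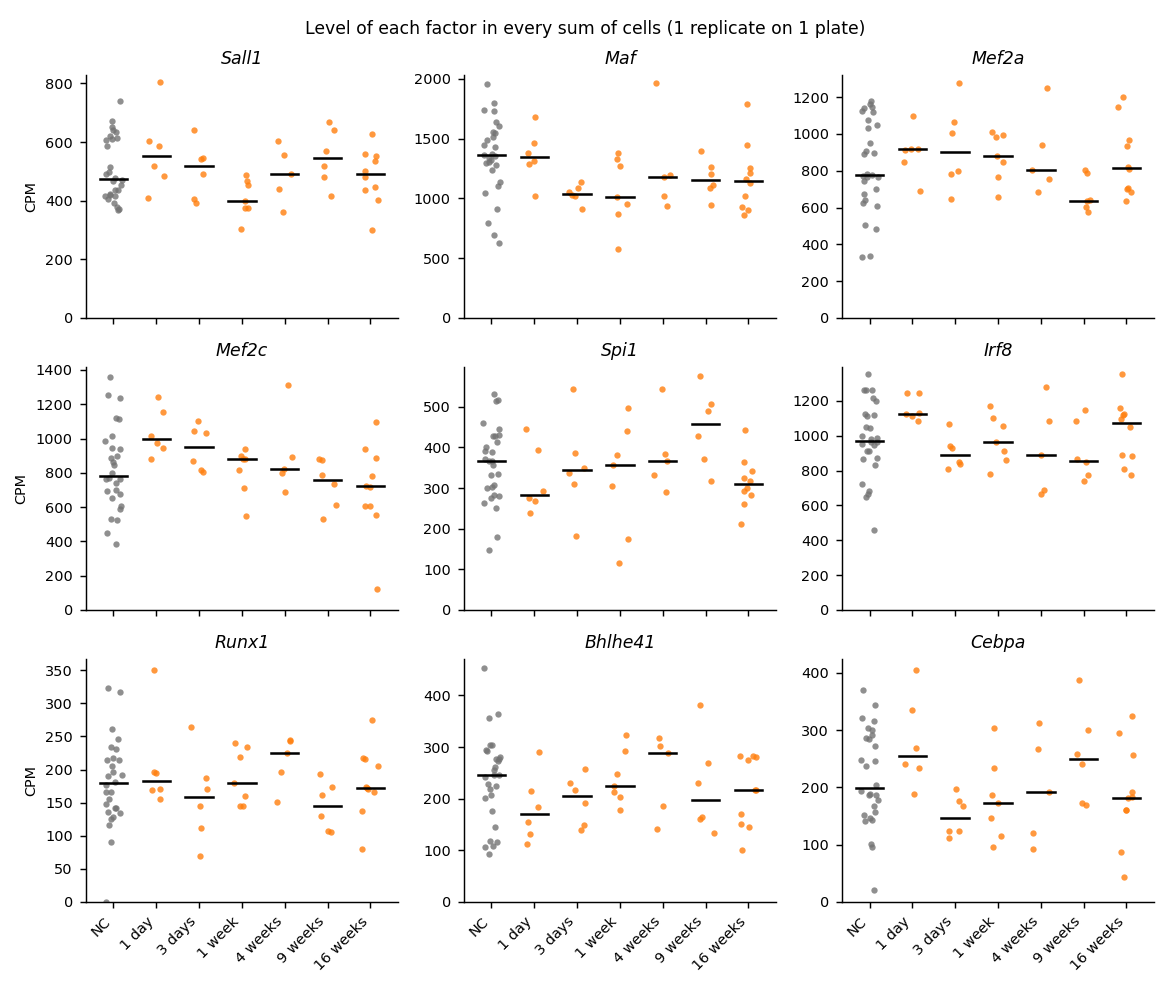
Level of each factor (CPM, linear axis from 0) in every sum of cells, where 1 point is 1 replicate on 1 plate, NC in grey and HFD in orange, and bars are medians. The diet lengths lie on different plates, and in every panel the HFD points fall largely inside the NC range.

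In single cells the abundant factors were seen in most cells, and the low ones in a minority. Maf molecules were found in 92.3% of the 1617 cells, Irf8 in 89.1%, Mef2a in 88.4%, Mef2c in 86.8%, Sall1 in 72.2%, Spi1 in 61.1%, Cebpa in 44.1%, Bhlhe41 in 42.0% and Runx1 in 40.8%. Thinned to 1000 molecules per cell, so that depth is equal, the shares were 67.3% for Maf, 60.9% for Irf8, 38.8% for Sall1, 27.6% for Spi1 and 18.7% for Runx1. If each plate's molecules fell on its cells at random, 73.5% of cells would hold Maf, 63.0% Irf8, 40.0% Sall1, 29.1% Spi1 and 18.9% Runx1. The variance of Maf over cells of a plate was 1.33 times its mean (median of 13 plates), the highest of the members, and that of Runx1 was 1.00 times. A cell held a median of 6 of the 9 factors, or 4 after thinning, and 83 cells (5.13%) held all 9 before thinning. Correlations between members over thinned, plate-centred cells lay between -0.07 and 0.08 for the 36 pairs, weak values in counts this sparse. The shares are limited by depth, and a cell without a molecule is not a cell without the factor.

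No factor passed the test for a difference between HFD and NC at any length. In the fit over all 6285 genes (edgeR quasi-likelihood test with plate as a block, Benjamini-Hochberg adjustment), 0 of 9 members passed an adjusted p of 0.05 at 1 day, 3 days, 1 week, 4 weeks, 9 weeks or 16 weeks, where 0%, 0%, 0.0159%, 0.0796%, 0% and 0.0318% of all genes passed. DESeq2 and limma voom also called 0 members, and of the 54 values 4, 4 and 6 had an unadjusted p under 0.05 by edgeR, DESeq2 and limma. At an unadjusted p under 0.05, 2 of 9 members passed at 3 days and 2 at 1 week, against 4.61% and 3.44% of all genes, and 0 passed at the other lengths, against 4.18%, 3.74%, 4.79% and 4.30% in the order of time. The 6 comparisons share the NC sums and are not independent. The genes that did pass, named after their values were seen, were Enpp2 (lower) at 1 week, Cd74, H2-Aa, H2-Ab1, H2-Eb1 and Fhl3 (higher) at 4 weeks, and Fhl3 and Hbb-bs (higher) at 16 weeks. Tested over all 6 lengths together, 0 of 9 members and 0.0955% of genes passed, and 1 of 9 members (Mef2a) and 4.33% of genes had an unadjusted p under 0.05.

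The intervals give the range of differences that the data leave. At 16 weeks, the length with the most sums, Sall1 differed from NC by -0.11 on the log2 scale (95% interval -0.36 to 0.14), Irf8 by 0.08 (-0.14 to 0.29), Maf by -0.16 (-0.36 to 0.05) and Mef2c by -0.03 (-0.27 to 0.21). Spi1 gave the largest difference of that length, at -0.28 (-0.58 to 0.02), and 1 of its 10 HFD sums lay above the NC mean of its plate. At 1 day, Maf was at -0.26 (-0.55 to 0.03), and 0 of 6 HFD sums lay above the NC mean of their plates. Irf8 was at 0.09 (-0.21 to 0.39) at that length, with 6 of 6 sums above. At 9 weeks Cebpa was at 0.38 (-0.08 to 0.84) and at 4 weeks Spi1 was at 0.34 (-0.13 to 0.80). The largest difference at 4 weeks was that of Bhlhe41, at -0.43 (-0.98 to 0.13), with 0 of 3 HFD sums above the NC mean of their plate. Mef2a was at 0.25 (-0.12 to 0.62) at 4 weeks, with 3 of 3 above. The interval of Runx1 at 4 weeks, with a difference of 0.01, ran from -0.61 to 0.62.

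**Figure D2:**
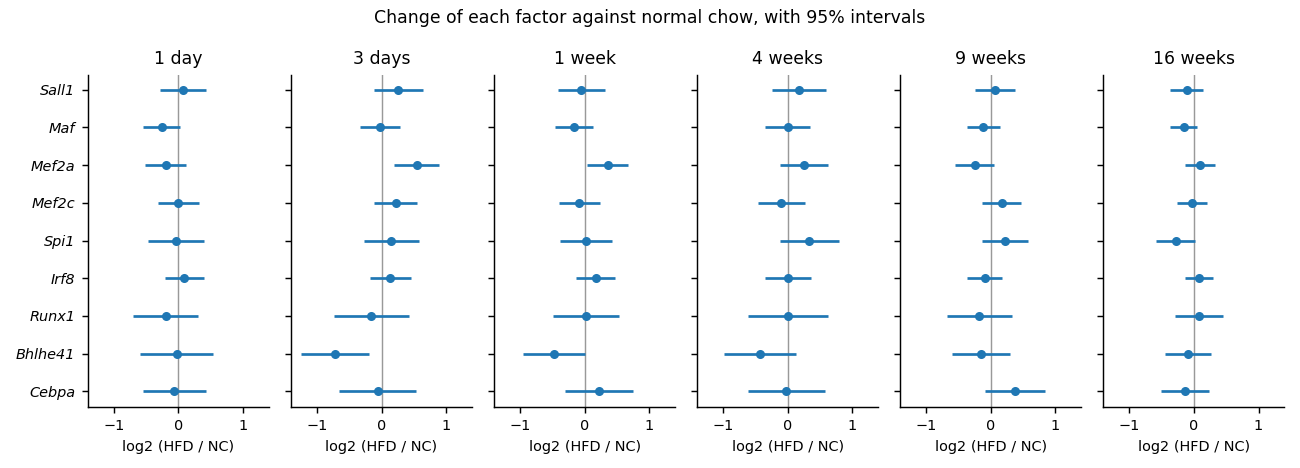
Difference of each factor from NC on the log2 scale (points) with its 95% interval (lines) at 6 lengths of HFD, from the fit across all genes with plate as a block. The intervals leave out 0 only for Mef2a and Bhlhe41 at 3 days and 1 week, and none of these passed after adjustment.

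Within 3 days and within 1 week, Mef2a and Bhlhe41 gave the largest differences of the 9 members at that length, in opposite directions. On plate 4 at 3 days, Mef2a stood at 1064 and 783 CPM in replicates M24 and M25 against 484 in the NC replicate M26. On plate 5, with no NC, the same replicates held 1275 and 1005. On plate 13 the 3-day replicates M17 and M18 held 645 and 799, against 640.0, 338, 606 and 626 in the 4 NC replicates. All 4 of the 3-day sums on plates with NC thus lay above the NC mean of their plate. The fitted difference of Mef2a was 0.54 ± 0.18 (SE) on the log2 scale, a fold of 1.46 (p = 0.00225, adjusted p = 0.701, edgeR), beside a median of 0.10 over all genes at this length. For Irf8 all 4 sums also lay above the NC mean, with a fitted difference of 0.14 ± 0.16.

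Mef2a at 1 week showed the same direction on most plates. The 1-week sums held 992 and 767 on plate 4 against 484 for NC, 1012 on plate 7 against 702, 878 on plate 9 against 897, and 985 on plate 13 against the 4 NC values given above. On plate 5 they held 850 and 657. The difference was 0.36 ± 0.16 (p = 0.0313, adjusted p = 0.999, edgeR), and 4 of 5 sums on plates with NC were above the NC mean. Irf8 and Runx1 also had 4 of 5 above, with differences of 0.17 and 0.02. Over all lengths together Mef2a had p = 0.0189 and an adjusted p of 1.00.

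Bhlhe41 ran lower. At 3 days its sums held 258 and 230 on plate 4 against 453 for NC, 218 and 148 on plate 5, and 140 and 191.8 on plate 13 against 282, 92.2, 303 and 295 in NC. The lowest value on plate 13 was thus an NC sum, so the groups overlapped there. The 3-day sums and 2 of the NC sums on plate 13 (303 and 295) carry 14 weeks in their well names. The other NC sums, among them the one at 92.2, carry 24. With all 4 NC sums the difference on plate 13 was -0.55 on the log2 scale for Bhlhe41 and 0.39 for Mef2a, and with the 2 NC sums that carry 14 it was -0.85 and 0.23. The fitted difference of Bhlhe41 at 3 days was -0.72 ± 0.27, a fold of 0.606 (p = 0.00734, adjusted p = 0.990, edgeR). At 1 week the sums held 248 and 292 on plate 4, 322 and 224 on plate 5, 179 on plate 7 against 276 for NC, 213 on plate 9 against 304, and 203 on plate 13. The difference was -0.48 ± 0.24 (p = 0.0496, adjusted p = 0.999, edgeR), and 0 of 4 sums at 3 days and 0 of 5 at 1 week lay above the NC mean of their plate.

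The NC sum of plate 4, of 7 cells, held the lowest Mef2a and the highest Bhlhe41 among the NC plate means, and these values move with both results. Without plates 4 and 5, Mef2a at 3 days was at 0.26 ± 0.25 (p = 0.304) and Bhlhe41 at -0.54 ± 0.41 (p = 0.185), and at 1 week they were at 0.42 ± 0.20 (p = 0.0368) and -0.49 ± 0.31 (p = 0.112, all edgeR). Without that NC replicate alone the 3-day values were 0.47 and -0.65, and the 1-week values were 0.29 (p = 0.0913) for Mef2a and -0.41 (p = 0.112, edgeR) for Bhlhe41. With no block for the plate, Mef2a was at 0.13 at 3 days and 0.05 at 1 week, and Bhlhe41 was at -0.22 at 3 days and turned to 0.01 at 1 week.

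**Figure D3:**
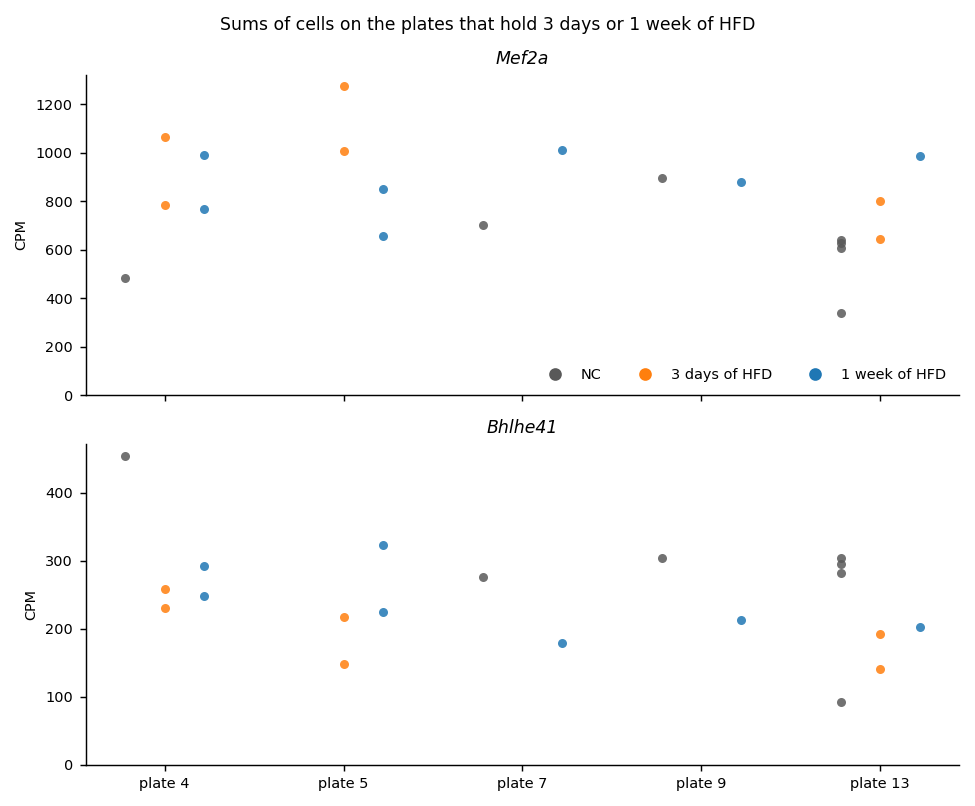
Mef2a and Bhlhe41 (CPM, linear axis from 0) in every sum on the plates that hold 3 days (orange) or 1 week (blue) of HFD, beside NC (grey). Plate 5 has no NC sum, and on plate 4 the NC sum is the lowest for Mef2a (484) and the highest for Bhlhe41 (453).

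Lengths of HFD were also compared with each other. Of 135 tests (9 factors over 15 pairs of lengths), 0 passed an adjusted p of 0.05, where 0% to 0.0159% of all genes passed in a pair, and 10 had an unadjusted p under 0.05, of which 7 were of Mef2a, 2 of Spi1 and 1 of Bhlhe41. That is 7.41% of the tests, where 3.83% to 5.38% of all genes had such a p in a pair (median 4.46%), and the pairs share lengths. The smallest p was that of Mef2a, lower by 0.79 ± 0.23 on the log2 scale at 9 weeks than at 3 days (p = 0.000687, adjusted p = 0.604, edgeR). Both lengths have few replicates (2 and 4) and share no plate, so the comparison runs through the NC and 16-week sums that lie beside each.

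The share of cells that held a factor was compared as well. With cells thinned to 1000 molecules, 0 of 54 comparisons (9 factors at 6 lengths, 0%) passed after adjustment in an exact two-sided permutation of the replicates within linked plates, and 3 (5.56%) had an unadjusted p under 0.05. Irf8 was found in 69.4% of cells at 1 day of HFD and 56.9% in NC, a difference of 12.5 points (exact permutation p = 0.005, adjusted p = 0.27), while its level differed by 0.09 ± 0.15 on the log2 scale. Cebpa at 16 weeks differed by -8.20 points (exact permutation p = 0.0133, adjusted p = 0.359), and Runx1 at 1 day by -7.92 points (exact permutation p = 0.025, adjusted p = 0.45). With cells not thinned, the difference of Runx1 turned to 1.21 points. At 1 day NC and HFD hold equal numbers of replicates on each plate, so swapping all labels gives a difference of the same size. The smallest p of this permutation was thus 0.005 there, the value of Irf8. At the other lengths it was 0.0222 at 3 days, 0.0167 at 1 week, 0.167 at 4 weeks, 0.0667 at 9 weeks and 0.00222 at 16 weeks. After adjustment over the 54 comparisons no single factor could pass alone at any length, so the count of 0 says little about the shares.

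A few cells on the plates carried transcripts of other cell types, and they were compared with the other cells of the same replicates. The marker lists were those of border-associated macrophages (Mrc1, Cd163, Lyve1, Cbr2 and others, 20 cells with at least 3 molecules), monocytes (Ccr2, Plac8 and Vcan, 14 cells) and oligodendrocytes (Mbp, Mobp and others, 48 cells). Cells with at least 5 molecules of the MHC class II genes Cd74, H2-Eb1, H2-Ab1 and H2-Aa, a list added after the data had been seen, numbered 41. The other lists gave 2 cells for neutrophils, 3 for neurons, 8 for endothelium and 0 for lymphocytes and astrocytes. Many genes of these lists were not among the genes used. Those present were 1 of 4 for neutrophils, 2 of 6 for lymphocytes, 3 of 5 for astrocytes, 3 of 6 for endothelium and 4 of 5 for neurons. A low count of cells is therefore not an absence of the cell type. All cells of the compared groups also carried microglial markers, so they are cells with such transcripts and not a named cell type. The groups overlap: 8 cells passed both the macrophage and the monocyte list, and 12 cells of the macrophage list and 11 of the monocyte list were also in the MHC class II group.

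Sall1 was lower in the cells of the macrophage, monocyte and MHC class II groups. In the 20 cells with border-associated macrophage markers it held 10 molecules, or 0.09 per 1000 (exact Poisson 95% interval 0.05 to 0.17), against 0.49 (0.46 to 0.53) in 491 other cells of those 12 replicates. In the 14 cells with monocyte markers it held 3 molecules, or 0.04 per 1000 (0.01 to 0.12), against 0.46 (0.43 to 0.50) in 387 other cells. In the 41 MHC class II cells it stood at 0.26 (0.20 to 0.33) against 0.52 (0.49 to 0.56). Sall1 was lower in 11 of 12, 10 of 10 and 13 of 13 replicates (exact sign-flip permutation over replicates, two-sided, adjusted p = 0.0219, 0.0219 and 0.011). With cells taken from 2 molecules of the macrophage list, the mean difference of Sall1 over replicates went from -0.38 to -0.24 per 1000 and no longer passed (exact permutation, adjusted p = 0.112). With cells from 5 molecules (10 for MHC class II), in fewer replicates, none of the Sall1 differences passed (-0.43, -0.46 and -0.36, exact permutation, adjusted p = 0.234, 0.219 and 0.0877). These intervals cover counting error only, and 7 replicates of each group gave a single marker cell.

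Irf8 was lower with macrophage and monocyte markers, and Maf did not pass there. Irf8 stood at 0.56 per 1000 (0.43 to 0.72) against 1.01 in cells with border-associated macrophage markers and at 0.42 (0.29 to 0.60) against 0.98 with monocyte markers, lower in 11 of 12 and 10 of 10 replicates (exact permutation, adjusted p = 0.0439 and 0.0219). With cells taken from 2 molecules, the mean difference of Irf8 with macrophage markers went from -0.43 to -0.11 per 1000 and no longer passed (exact permutation, adjusted p = 0.931). With macrophage and monocyte markers, the Irf8 differences were -0.33 and -0.53 from 5 molecules (exact permutation, adjusted p = 0.234 and 0.219) and -0.56 and -0.49 without plates 4 and 5 (adjusted p = 0.234 for both, exact permutation), and did not pass. Maf stood at 1.32 (1.11 to 1.56) against 1.23 in the former, and was lower in 4 of 12 replicates (exact permutation, adjusted p = 0.466). Spi1, the factor of all macrophages, stood at 0.33 against 0.35 there, Runx1 at 0.19 against 0.19, Mef2a at 0.55 against 0.93, Mef2c at 0.67 against 0.93, Bhlhe41 at 0.13 against 0.22 and Cebpa at 0.18 against 0.21. In cells with monocyte markers all 9 pooled levels were below those of the other cells, among them Maf at 0.99 against 1.17, Mef2a at 0.57 against 0.93, Mef2c at 0.53 against 0.87 and Runx1 at 0.08 against 0.19. Only Sall1 and Irf8 passed in these groups, and whether they differed more than the other factors was not tested. In cells with oligodendrocyte markers Sall1 stood at 0.50 against 0.52 and Irf8 at 1.01 against 1.03. Of the 45 comparisons, 5 (11.1%) passed, all of them Sall1 or Irf8.

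The MHC class II cells hold part of the other lists. When the 15 that also passed the macrophage or monocyte list were set aside, Sall1 stood at 0.37 (0.28 to 0.47) against 0.51 in the remaining 26 cells, lower in 8 of 10 replicates (exact permutation, adjusted p = 0.752). Of the 41 cells, 33 came from plates 4 and 5, which held 3 days, 1 week and 4 weeks of HFD beside the 7 NC cells, and 4 were NC cells. The mean difference of Sall1 over replicates (marker cells minus other cells, molecules per 1000) was -0.38, -0.38 and -0.34 for macrophage markers, monocyte markers and MHC class II, and without plates 4 and 5 it was -0.38, -0.34 and -0.37. Without those plates no comparison passed adjustment (exact permutation, adjusted p = 0.234 for each), with fewer replicates in each group.

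**Figure D4:**
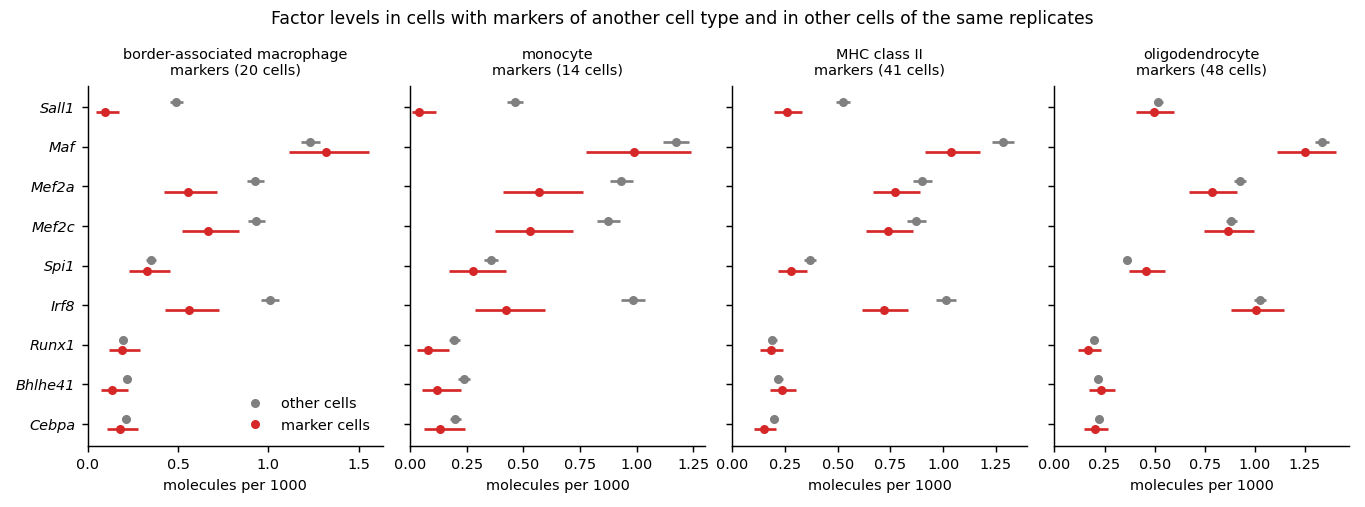
Level of each factor (molecules per 1000, linear axis from 0) in cells with markers of border-associated macrophages, monocytes, MHC class II or oligodendrocytes (red) and in the other cells of the same replicates (grey), with exact Poisson 95% intervals that cover counting error only. The intervals of Sall1 lie apart in the first 3 panels, at 0.09, 0.04 and 0.26 against 0.49, 0.46 and 0.52. So do those of Irf8, at 0.56, 0.42 and 0.72 against 1.01, 0.98 and 1.01, though Irf8 did not pass with MHC class II. The intervals of Mef2a and Mef2c lie apart in the panels of macrophage and monocyte markers, and that of Maf with MHC class II, and none of these passed.

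The differences with diet were fitted again without the marker cells. Cells of the MHC class II group made up 9.92% of cells at 3 days, 8.72% at 1 week and 6.25% at 4 weeks, but 0.55% of NC cells, 0% at 1 day and 9 weeks and 0.87% at 16 weeks. Single replicates held most of them: M24 held 10 of the 12 cells at 3 days, M23 held 12 of the 15 at 1 week and M21 held 5 of the 8 at 4 weeks. Without that replicate the shares were 2.47%, 2.13% and 2.97%. The summed level of border-associated macrophage markers (CPM without TMM scaling) had a median of 26.8 over NC replicates (0 to 141), 46.0 at 3 days (0 to 305.7), 121 at 1 week (9.2 to 194) and 104 at 4 weeks (30.9 to 264). Marker levels at 1 week cover 6 replicates, among them the replicate under 5 cells that the sums leave out. That of monocyte markers reached 50.8 in NC, 465 at 3 days, 434 at 1 week and 271 at 4 weeks. That of the neutrophil list, which rests on 1 gene, was 0 in every NC replicate and reached 6526 in 1 replicate at 4 weeks. In the fit without the 106 cells that carried markers of another cell type or MHC class II, Mef2a at 3 days was at 0.50 ± 0.18 and Bhlhe41 at -0.74 ± 0.27, and 0 members passed.

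Of 34 other macrophage transcription factors, 28 were tested, and 0 passed at any length. Those with the smallest p were Lyl1, a partner of the basic helix-loop-helix family in blood cells, at -0.62 ± 0.29 at 9 weeks (p = 0.0327, adjusted p = 0.981), and Cebpb, an inflammatory relative of Cebpa, at -0.84 ± 0.40 at 1 week (p = 0.035, adjusted p = 0.999, edgeR). The median over the list lay between -0.02 and 0.15 on the log2 scale over the lengths, against -0.04, 0.14, 0.02, 0.01, -0.09 and -0.09 for the members from 1 day to 16 weeks. The median over all genes lay between -0.01 and 0.10.

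None of the 16 homeostatic microglial genes passed at any length. At 3 days all 16 lay above 0, with a median of 0.23 against 0.10 for all genes, and 7 had an unadjusted p under 0.05, as did 4.61% of all genes. Siglech, a sialic acid receptor of microglia, gave 0.44 ± 0.14 (p = 0.00168, adjusted p = 0.701) and Sparc, a matrix protein of resting microglia, 0.32 ± 0.12 (p = 0.0104, adjusted p = 0.990, edgeR). At 1 week 15 of 16 lay above 0, with a median of 0.20 against 0.005 for all genes, and 3 had an unadjusted p under 0.05, as did 3.44% of all genes. The 16 genes share the same sums and TMM scaling, among them the NC sum of 7 cells on plate 4. Their directions are thus not independent of each other. The median was 0.03 at 1 day, 0.07 at 4 weeks, 0.00 at 9 weeks and -0.05 at 16 weeks. Of 8 factors that other tissue macrophages use, 5 were in the table. Gata6, the factor of peritoneal macrophages, held 8 molecules over 1617 cells, Pparg, the factor of alveolar macrophages, 15, Id3, used by liver macrophages, 27 and Irf4 35. Batf3, with 211 molecules, was the only one of that list with enough counts to test, and gave -0.48 ± 0.39 at 16 weeks (p = 0.219, adjusted p = 0.998, edgeR).

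The genes whose level was most like that of each factor were sought over the 68 sums. Among 1337 genes with a mean of at least 10 transcripts per sum, compared by Pearson's r of log2 levels centred on each plate, the nearest to Mef2c were Shisa5 (0.73), Itgav (0.69) and Mlec (0.68), and to Runx1 Cul1 (0.66), Fam63b (0.64) and Stk38 (0.62). Without the 2 sums farthest from the median of the factor these fell to 0.38, 0.26 and 0.34 and to 0.33, 0.16 and 0.15, so they rest in large part on those sums. The nearest to Maf were Rsrc2 (0.56), Zfp871 and Sf1, to Mef2a Arhgap5 (0.53), Fam63b and Srsf5, and to Cebpa Rb1cc1 (0.49), Sgce (0.42) and Eif5a (0.37). Without the 2 farthest sums those of Cebpa fell to 0.30, 0.35 and 0.11. Irf8 lay nearest to Cd81 (0.49), Stk38 and Prex1, Bhlhe41 to Cul1 (0.47), Lyl1 and 4632427E13Rik, Spi1 to Slc25a45 (0.47), Arhgdia and Maf, and Sall1 to Gm43333 (0.42), Gm37474 and Prex1. Among members the highest r was that of Spi1 and Maf (0.46) and the lowest that of Spi1 and Runx1 (-0.44). The sums share plates and replicates, and the values are a description only.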

How the data were processed

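Single cells were sequenced by CEL-Seq2, whose barcodes and tags mark the well and the molecule. The deposited tables give, for each plate, the authors' estimated counts: numbers of different tags per gene and well, corrected for chance repeats among 4096 tags and not normalized. Per the study's methods and the submitters' processing notes, reads were mapped to mm10 with STAR and counted with featureCounts. Strand use in counting is not given in the sources used here. Names of genes had their chromosome suffix removed, and 0 symbols occurred more than once on a plate.

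Diet, length and replicate came from the deposited table of wells, since the labels put all plates in 1 group and state 3 days of HFD for each. The lengths 7 days and 1 week were merged. Replicate identifiers repeat between unlinked plates, so identifiers were kept apart by linked plates. Well names also carry a number of weeks, whose meaning is not given, and on plate 13 it is 14 in some sums and 24 in others. Wells under 1500 transcripts and 1 replicate under 5 cells were left out. Cells were sorted singly into wells and no doublet caller was run.

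Estimated counts were summed per replicate and plate, rounded, and fitted once over all lengths with edgeR 4.0.16 in R 4.3.3 (glmQLFit, glmQLFTest, TMM, plate as block, genes with a mean of at least 2 transcripts per sum), with Benjamini-Hochberg adjustment over all 6285 genes. The test was checked on simulated data. Limma 3.58.1 and DESeq2 1.42.0 were alternatives. A replicate that lies on several plates enters once per plate. The consensus correlation of its sums was 0.02. Shares of cells used cells thinned to 1000 molecules (seed 1). Python 3.11.15, numpy 2.4.6 and scipy 1.17.1 were used. Genes were named by these rules: all members, the 2 genes of each list with the smallest p where none passed, and the 3 nearest genes of each member. The 9 members and the gene lists were chosen with earlier results of these data known. Columns of the filtered table were used for gene names only.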

Additional observations from a re-analysis of the deposited data

Results flagged for a closer look

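Among 36 groups of 4 to 6 replicates, Runx1 held a sample far from the others in 2, and chance alone gives about 1 in 20. At 1 day of HFD the highest replicate, M12 of plate 8, stood at 350.2 CPM, with the nearest at 196 and the lowest at 155. At 16 weeks the lowest replicate, M10 of plate 13, stood at 80.4, with the nearest at 173 and the highest at 211, and its sum held 8 cells and 22774 transcripts. The check took no account of the plate. On plate 8 the NC sums held 324, 317 and 234, and on plate 13 the NC sums ran from 0 to 230, so neither value is far from its own plate.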

How the results depend on the processing

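No member passed at any length in any of 59 settings (15 other choices and 44 replicates left out), where the smallest adjusted p of a member was 0.313. Of 2061 refitted log2 differences 148, in 34 results, changed sign, none larger than 0.475 as reported or 0.329 after, with a smallest p of 0.063. Bhlhe41 at 1 week turned to 0.014 with no plate block, and the share of cells with Runx1 at 1 day to 1.21 points with cells not thinned. The cause was not tested.

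Counts of all genes called were small and moved. With edgeR's own filter they were 0 at 1 week, 4 weeks and 16 weeks, and with no filter 6 at 3 days, 6 at 1 week, 12 at 4 weeks, 4 at 9 weeks and 4 at 16 weeks. With no plate block they were 3 at 1 day, 20 at 3 days, 13 at 1 week and 23 at 4 weeks. With sums over linked plates they were 7 at 3 days, 4 at 1 week and 8 at 4 weeks, with at least 10 cells per sum 2 at 3 days and 3 at 4 weeks, and with only NC and 1 length 3 at 3 days, 6 at 1 week and 2 at 9 weeks. DESeq2 called 0 at 1 week, 4 weeks and 16 weeks and 1 at 9 weeks, and limma 3 at 1 week, 2 at 4 weeks and 4 at 16 weeks. Choices made after seeing the data gave, without plates 4 and 5, 2 at 3 days, 7 at 1 week and 2 at 4 weeks, with only 1-week labels 1 at 3 days, with only 7-day labels 2 at 1 week, and without marker cells 1 at 4 weeks and 1 at 9 weeks. Leaving out 1 replicate gave 0 to 5 at 3 days (5 without M25, 2 without NC M1 of plate 7, 1 without NC M26), 1 to 4 at 1 week (4 without M22, 3 without M2 or NC M1 of plate 7, 2 without NC L1 or NC L3), 4 to 6 at 4 weeks, 0 to 3 at 9 weeks (3 without M7) and 0 to 3 at 16 weeks (0 without L4 or NC L3). Of the 45 comparisons of marker cells 5 passed as reported, 3 with cells from 2 molecules, 0 from 5 molecules and 0 without plates 4 and 5.

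NC and HFD sums were matched through the plate block of the reported fit, and replicate identifiers add no further pairing, since each belongs to 1 diet on a set of plates. Depth limits the low factors most: Runx1 held 979 molecules over all cells.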
